A study of Mus musculus with 6 samples.

Results

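The genes described here are the long protein-coding genes of mouse neural progenitor cells (NPCs): those whose annotated span, the distance between the first and the last annotated exon base, is 500 kb or more, with a mean of at least 0.5 CPM over the 6 libraries. CPM are counts scaled to the total counts of a library. There were 151 of them among 230 protein-coding genes of that span, 21967 protein-coding genes and 53801 genes in all, and the other 79 long genes lay under the CPM minimum. Span does not use the counts. The mean level is taken over all 6 libraries, those with auxin included. A gene that falls after auxin therefore lies in a lower CPM class, or nearer the minimum, than its untreated level would give. The 151 long genes were set beside 12502 protein-coding genes under 500 kb that met the same CPM minimum, called the shorter genes below.

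RNA was sequenced from NPCs derived from BL/6J x CAST-EiJ embryonic stem cells in which the protein SPEN carries an auxin-inducible degron (AID), a tag that leads to degradation of the protein when auxin is added. The groups were untreated cells, cells with 500 uM auxin for 24 h and cells with 500 uM auxin for 48 h, all with the SPEN degron and all grown with EGF and FGF. Each group held 1 library of subclone 30 and 1 of subclone 31, so n = 2 per group and each clone gives 1 library per time. The 2 replicates of a group are thus 2 clonal lines, and nothing in the labels describes untagged cells, auxin on cells without the degron, or repeated cultures of a clone.

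RNA polymerase II needs hours to cross a gene of this length, nearly all of which is intron, so transcripts of such genes depend on elongation, on the release of DNA supercoils by topoisomerases and on splicing of very long introns. In the nervous system the class holds many cell adhesion molecules, ion channels, neurotransmitter receptors and synaptic scaffolds. SPEN is a nuclear RNA-binding protein that recruits histone deacetylase complexes; it is known for silencing of the X chromosome by Xist and as a corepressor of RBPJ, the DNA-binding factor of Notch signalling. The comparisons of auxin with untreated cells ask which transcripts change when SPEN is degraded, and the comparison of 48 h with 24 h asks how the change develops.

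Total counts per library ran between 24603816 and 43008978, at which 3 counts correspond to 0.122 and 0.0698 CPM. Levels below are CPM after TMM scaling, and values are given in the order clone 30, clone 31. Spen RNA stood at 92.3 and 116 CPM in untreated cells, 173 and 218 CPM at 24 h and 199.6 and 259 CPM at 48 h. A degron acts on the protein, so RNA does not check its loss. Of the NPC markers, 13 of 14 were tested and their summed level was 5184 to 7374 CPM. Sox1, one of them, had 0 to 0.0802 CPM, and 5 pluripotency markers summed to 4.86 to 7.49 CPM. The 7 mesenchymal markers summed to 53.7 to 70.0 CPM in clone 31 and 4.12 to 6.85 CPM in clone 30, and 14 neuron markers to 798 to 1287 CPM over the 6 libraries. Map2 alone held 699 to 1082 CPM of the neuron sum. In bulk RNA, fewer cells of a type and less RNA per cell cannot be told apart.

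The 151 long genes had a median span of 701.4 kb, against 25.3 kb for the shorter genes, and a median exon length of 11380 bp, against 4519 bp. Exons made up a median of 1.42% of the span of a long gene and 18.1% of that of a shorter gene. Their median GC content was 46.2%, against 49.8%. They lay on 19 chromosomes, and 6 of them (3.97%) were on the X, as were 3.42% of the shorter genes. Their median level was 18.8 CPM, against 39.1 CPM, and per kb of exon 1.72 CPM, against 8.17 CPM. Together they took 0.787% and 0.734% of all counts in untreated cells, 0.796% and 0.688% at 24 h and 0.879% and 0.773% at 48 h. The highest per kb of exon was Ank2, which encodes ankyrin-B, an adaptor between membrane proteins and the spectrin skeleton (26.3 CPM per kb), followed by Dock1, an activator of the GTPase Rac (25.2), Exoc4, a subunit of the exocyst tether of vesicles (23.3), Ctnnd2, which encodes delta-catenin (21.1), and Sema6d, a transmembrane semaphorin (20.6).

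After 24 h of auxin the long genes as a class lay lower than in untreated cells of the same clone, and the genes at the low end of their range included Lrrc4c, Nrxn3, Ctnna2, Erbb4 and Negr1, genes of neuronal adhesion and receptors. The median within-clone log2 change of the 151 genes was -0.14 in clone 30 and -0.25 in clone 31, beside 0.02 and 0.02 for shorter genes weighted to the same spread of CPM, and 0.01 and 0.01 for all 16007 genes tested. The change was below 0 for 61.6% of the long genes in clone 30 and 72.8% in clone 31, beside 46.5% and 45.9% of the shorter genes at their CPM. Over both clones at once, 84 long genes (55.6%) were lower and 32 (21.2%) higher, where over all genes tested 29.5% were lower and 33.9% higher. Lower by more than 1 on the log2 scale, that is, at under 0.5 times the untreated level in the fit with clone as a term, were 22 long genes (14.6%) and 64 shorter genes (0.512%). No long gene was higher by more than 1, and 34 shorter genes (0.272%) were. These shares are over all 12502 shorter genes and, unlike the medians above, were not matched on level.

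Taken without matching on level, the change was larger among the longest of them. Genes of 500 to 1000 kb had a median log2 change of -0.10 in clone 30 and -0.18 in clone 31 (117 genes), and genes of 1000 kb or more -0.35 and -0.50 (34 genes). Among genes of 200 to 500 kb the medians were -0.03 and -0.11 (610 genes), and in every class under 200 kb they lay between -0.01 and 0.07. The Spearman rank correlation between span and change over the 151 genes was -0.18 in clone 30 and -0.23 in clone 31, a description over genes that share their libraries. Over all 12653 protein-coding genes tested it was 0.06 in clone 30 and -0.16 in clone 31, so its sign there differed between the clones. The quartiles of the longest class were -0.82 and 0.04 in clone 30 and -1.09 and -0.06 in clone 31. At a like level, the step from 500 to 1000 kb to 1000 kb or more was small in clone 30 below 20 CPM. From 0.5 to 5 CPM the medians were -0.897 and -0.825 (26 genes) beside -0.934 and -1.017 (8 genes). At 5 to 20 CPM they were -0.382 and -0.338 (32 genes) beside -0.411 and -0.737 (12 genes). At 20 CPM or more they were 0.031 and -0.058 (59 genes) beside -0.134 and -0.066 (14 genes).

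**Figure D1:**
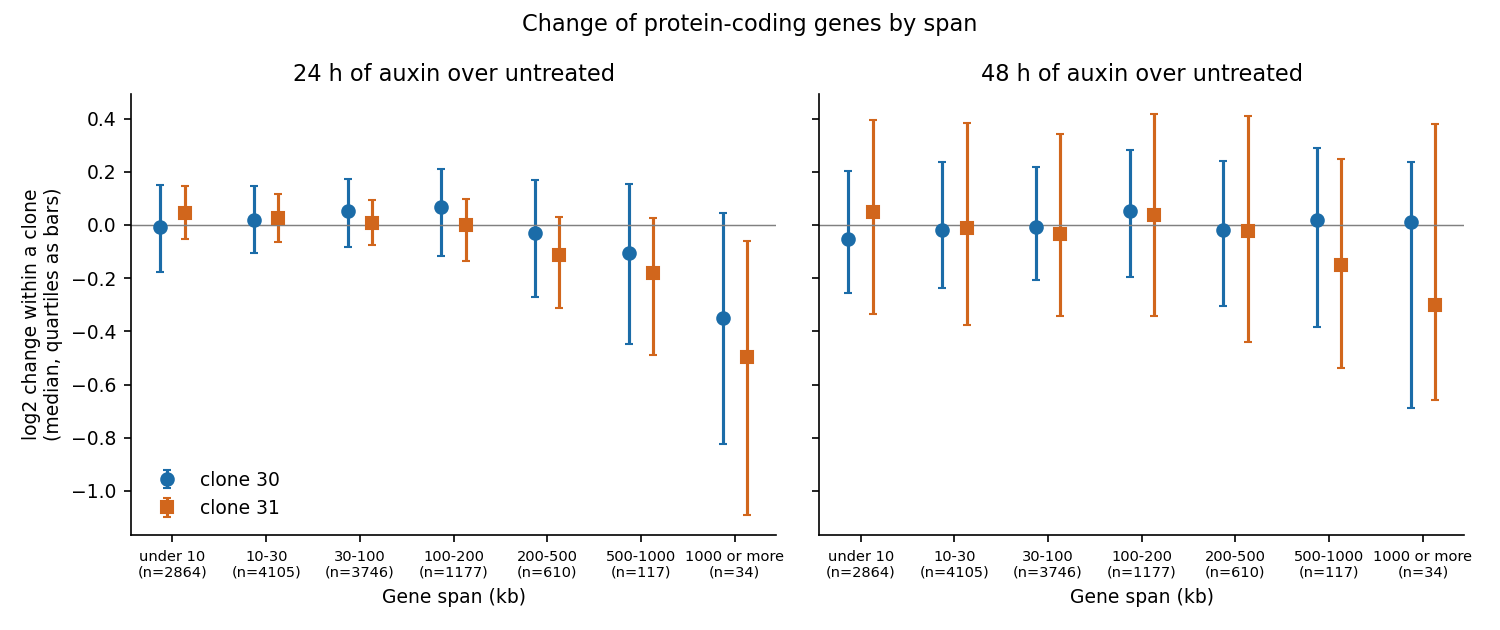
Median log2 change within each clone (y axis, bars are the quartiles over genes) of protein-coding genes by annotated span in kb (x axis, number of genes in brackets), for 24 h of auxin over untreated (left) and 48 h over untreated (right). At 24 h the medians of clones 30 and 31 are -0.03 and -0.11 at 200 to 500 kb and -0.35 and -0.50 at 1000 kb or more. The quartiles span 0 in every class at 48 h. At 24 h they do so in every class except in clone 31 at 1000 kb or more. Classes are not matched on level.

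The change also varied with the mean level of the gene over the 6 libraries. That mean holds the 24 h and 48 h levels, so the classes are not independent of the change. The 22 long genes with a mean under 2 CPM had medians of -0.90 in clone 30 and -0.98 in clone 31, where 1131 shorter genes of that level had -0.06 and -0.04. In the 5 to 20 CPM range the 44 long genes had -0.38 and -0.36, and 2228 shorter genes 0.01 and 0.01. At 50 CPM or more the 40 long genes had 0.04 and 0.02, which is where 5301 shorter genes of that level lay (0.03 and 0.02). Lower in both clones were 25 of the 34 long genes under 5 CPM (73.5%), beside 34.9% of shorter genes of that level. At 50 CPM or more 12 of the 40 were, beside 25.1% of shorter genes. At 20 to 50 CPM the 33 long genes had -0.005 in clone 30 and -0.242 in clone 31, and 3025 shorter genes 0.055 and 0.034. The gap to shorter genes of the same level thus lay mainly under 20 CPM in clone 30 and under 50 CPM in clone 31.

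**Figure D2:**
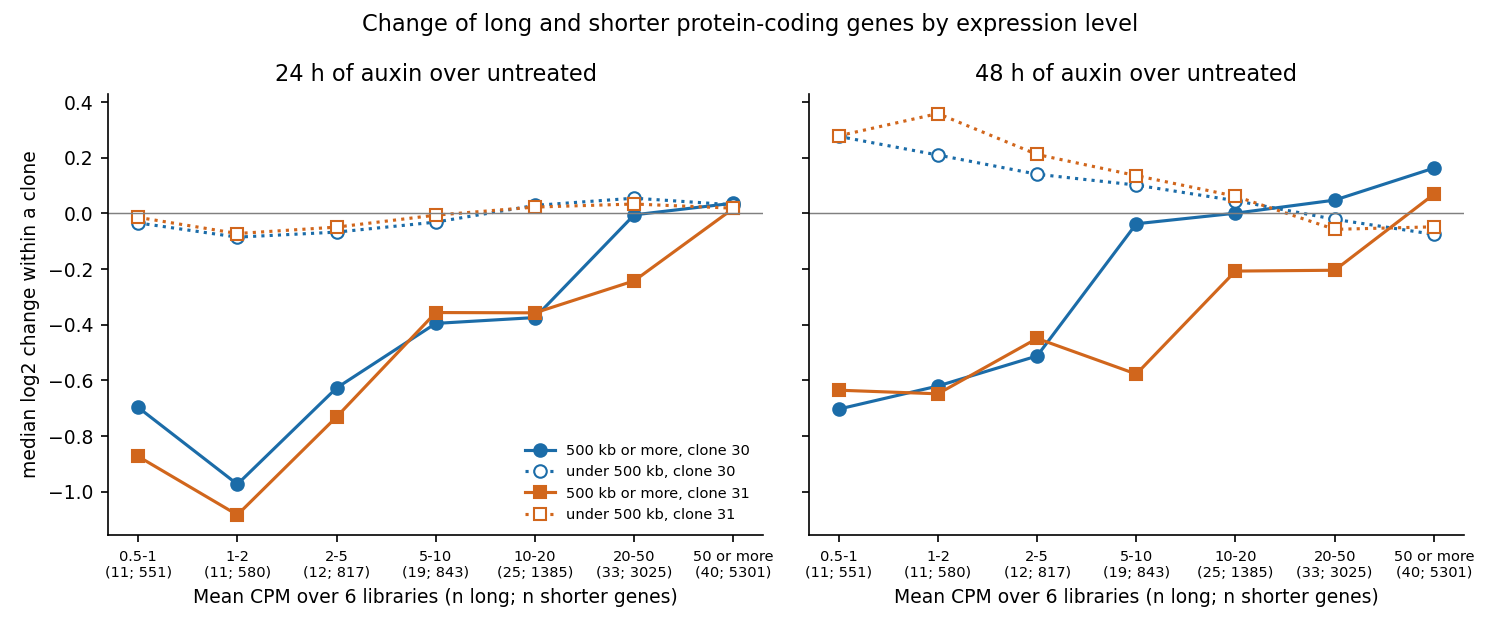
Median log2 change within each clone (y axis) of genes spanning 500 kb or more (filled, solid lines) and of protein-coding genes under 500 kb (open, dotted lines) by mean CPM over the 6 libraries (x axis, numbers of genes in brackets). At 24 h (left) the long genes lie near -1 at 1 to 2 CPM and meet the shorter genes at 50 CPM or more; at 48 h (right) the shorter genes of low level lie above 0 and the long ones below it.

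In the test across all genes, edgeR on treatment group alone called 0 long genes at 24 h at an adjusted p of 0.05 (0% of all 16007 genes were called), and 15 of the 240 genes with an unadjusted p under 0.05 were long, 14 of them lower. With clone as a term (the replicate block), edgeR again called 0 (0% of all genes), while 60 of the 988 genes with an unadjusted p under 0.05 were long, 53 of them lower and 7 higher. DESeq2 with clone as a term called 8 long genes lower and 0 higher, that is, 5.30% of the class. It called 0.162% of all genes lower and 0.0812% higher. Fitted on the 4 libraries of these groups with clone as a term, edgeR called 16 long genes lower and 0 higher, where 0.539% of all genes were called lower and 0.349% higher. Of the other fits, DESeq2 on treatment group alone called 1 lower and 0 higher (0.0187% and 0.0187% of all genes), limma voom with clone called 0 lower and 0 higher (0% and 0% of all genes), edgeR with clone and no filter called 7 lower and 0 higher (0.0597% and 0.0112% of all genes) and edgeR with clone and the trends on GC content and exon length removed called 0 lower and 0 higher (0% and 0% of all genes). The 24 h levels lay wholly under the untreated ones for 40 long genes (26.5%; 12.4% of all genes) and wholly above them for 11 long genes (7.28%; 13% of all genes). The DESeq2 count of long genes was lower when any library of this comparison was left out, which leaves 1 library in a group. The count over all genes was then lower too, except on omitting untreated clone 31. Omitting a 48 h library raised both counts.

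The 8 genes that DESeq2 called lower were mostly genes of the neuronal cell surface, and 4 of them are adhesion genes. The largest fall was in Lrrc4c (chromosome 2, 96318169 to 97631666, plus strand, 1314 kb), which encodes the netrin-G ligand NGL-1, a postsynaptic adhesion protein. It stood at 11.9 and 3.46 CPM at 24 h, against 35.0 and 13.1 CPM untreated. It had a log2 change of -1.72 ± 0.20 (DESeq2 adjusted p = 1.63e-14). The ± value is the standard error, here and below. The groups did not overlap although clone 30 was the higher clone at every time. Nrxn3 (chromosome 12, 88722876 to 90334935, plus strand, 1612 kb), a neurexin of presynaptic terminals, stood at 2.32 and 0.901 CPM at 24 h, against 8.66 and 2.27 CPM untreated. The log2 change was -1.64 ± 0.36 (DESeq2 adjusted p = 0.00412). Here the groups overlapped by a narrow margin, since clone 30 at 24 h was level with untreated clone 31. Negr1 (chromosome 3, 156561794 to 157316445, plus strand, 754.7 kb), a GPI-anchored IgLON protein that promotes neurite growth, differed little between the clones, with 10.7 and 9.79 CPM at 24 h, against 23.1 and 23.7 CPM untreated. This was a log2 change of -1.19 ± 0.19 (DESeq2 adjusted p = 4.55e-07). Cadm2 (chromosome 16, 66655421 to 67620908, minus strand, 965.5 kb), a synaptic immunoglobulin adhesion molecule, stood at 15.8 and 6.09 CPM at 24 h, against 25.3 and 19.1 CPM untreated, a change of -1.15 ± 0.26 (DESeq2 adjusted p = 0.00518), and the larger difference was in clone 31.

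Of the others, 3 are a growth factor receptor, a catenin and a matrix protein. Erbb4 (chromosome 1, 68032186 to 69108059, minus strand, 1076 kb), a receptor tyrosine kinase for neuregulins, stood at 7.22 and 3.39 CPM at 24 h, against 19.9 and 8.05 CPM untreated, a change of -1.36 ± 0.23 (DESeq2 adjusted p = 3.98e-06), without overlap of the groups. Ctnna2 (chromosome 6, 76881637 to 77979699, minus strand, 1098 kb), which encodes alpha-N-catenin, the link between neural cadherins and actin, stood at 13.9 and 4.38 CPM at 24 h, against 39.1 and 12.4 CPM untreated. On the log2 scale it changed by -1.50 ± 0.22 (DESeq2 adjusted p = 1.4e-08). Its 24 h level in clone 30 was above the untreated level of clone 31, but within each clone the change was alike, -1.49 in clone 30 and -1.49 in clone 31. Edil3 (chromosome 13, 88821472 to 89323223, plus strand, 501.8 kb), a secreted ligand of integrins and the shortest of the 151 genes, stood at 1.10 and 1.54 CPM at 24 h, against 4.25 and 3.92 CPM untreated. That is a log2 change of -1.64 ± 0.38 (DESeq2 adjusted p = 0.00746). These 7 genes were lower in both clones. With clone as a term, edgeR gave them adjusted p-values of 0.199 to 0.628, and on treatment group alone all 7 had an adjusted p of 1.

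**Figure D3:**
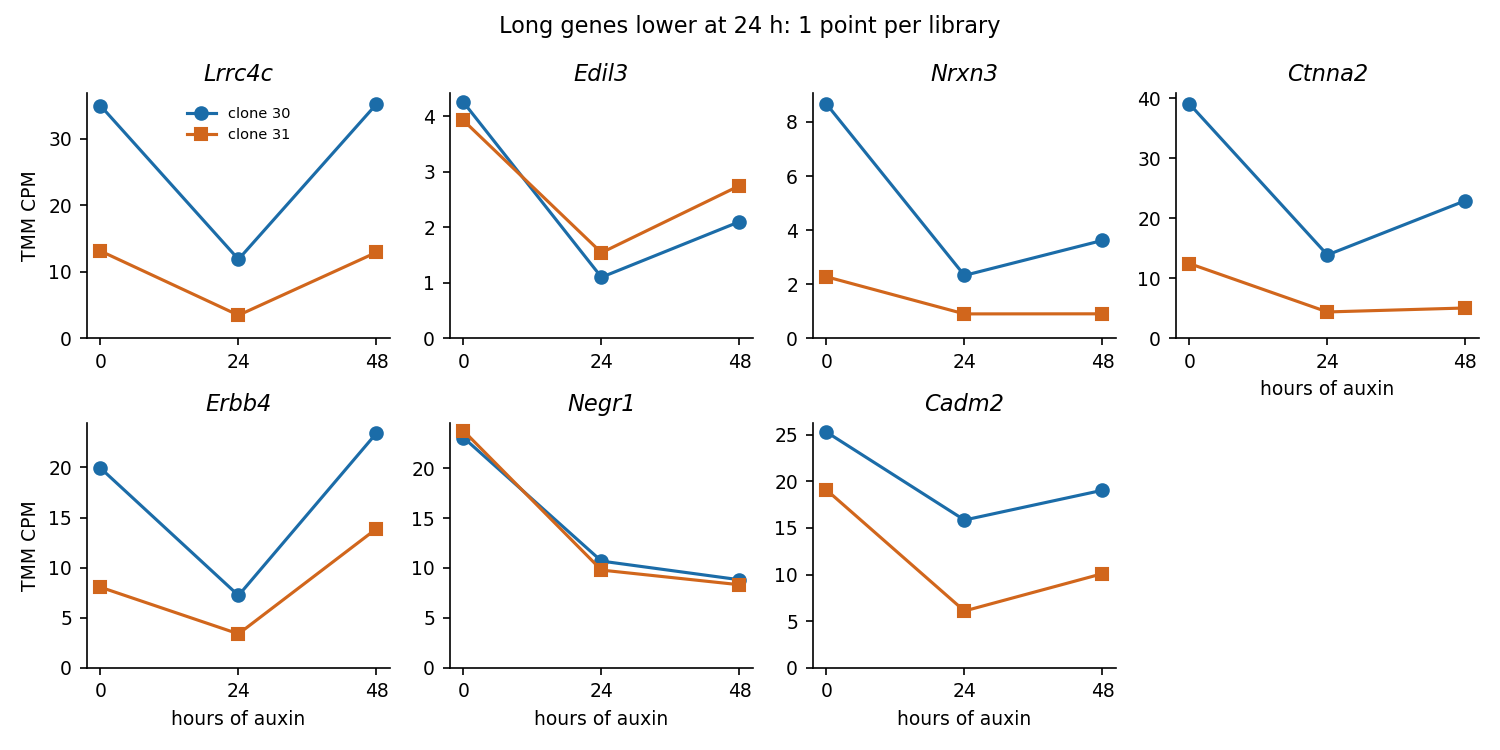
TMM-scaled CPM (y axis, from 0) of 7 long genes that DESeq2 called lower at 24 h, by hours of auxin (x axis), 1 point per library and a line per clone. Each of the 7 is lower at 24 h than untreated in both clones; Lrrc4c is near and Erbb4 above the untreated level at 48 h, and Negr1 is not.

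Start-site windows of the genes that fell are shown with the core letters TGGGAA, which RBPJ binds, marked in them. Whether RBPJ or SPEN acts at these genes was not tested. RefSeq windows of 300 bases around the annotated start (GRCm38.p6) were at hand for 6 of these 7 genes, and Edil3 was the one without. The windows of 3 of them follow, 5′ to 3′ on the gene's strand, with TGGGAA or its reverse complement TTCCCA in capitals.
Lrrc4c, chr2:96317919-96318218, plus strand: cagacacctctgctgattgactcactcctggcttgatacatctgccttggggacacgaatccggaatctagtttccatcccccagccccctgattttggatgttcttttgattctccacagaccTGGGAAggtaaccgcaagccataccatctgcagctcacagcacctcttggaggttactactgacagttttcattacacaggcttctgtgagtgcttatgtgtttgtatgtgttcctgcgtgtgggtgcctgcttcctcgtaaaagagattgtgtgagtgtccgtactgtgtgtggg
Negr1, chr3:156561544-156561843, plus strand: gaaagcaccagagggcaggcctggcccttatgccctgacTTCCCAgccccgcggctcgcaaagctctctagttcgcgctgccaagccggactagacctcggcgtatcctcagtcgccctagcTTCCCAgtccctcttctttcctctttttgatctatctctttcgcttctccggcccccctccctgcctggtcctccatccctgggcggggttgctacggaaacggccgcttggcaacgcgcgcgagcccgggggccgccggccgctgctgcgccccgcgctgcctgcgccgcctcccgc
Ctnna2, chr6:77979618-77979917, minus strand: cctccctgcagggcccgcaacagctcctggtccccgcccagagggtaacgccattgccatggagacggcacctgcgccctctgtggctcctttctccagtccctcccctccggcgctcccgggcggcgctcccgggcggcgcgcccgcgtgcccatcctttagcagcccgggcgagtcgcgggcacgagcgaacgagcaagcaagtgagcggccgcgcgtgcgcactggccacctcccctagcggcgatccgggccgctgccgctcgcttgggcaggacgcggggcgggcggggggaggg
The Lrrc4c window held these letters at 1 place, the Negr1 window at 2 and the Ctnna2 window at 0. Over the 8 windows of these 6 genes, 4 (50%) held the letters on either strand. Nrxn3 had several windows, and the share counts windows and not genes. Over the 196 windows of the 117 long genes with one, 23% held them, as did 25.6% of all 32851 windows. With so few windows of the genes that fell, a difference between these shares was not tested. A match is a run of letters and not a bound site.

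The members were grouped by role, and calls by role at 24 h are those of edgeR and DESeq2 with clone as a term on all 6 libraries unless another fit is named. Of 15 ion channel and neurotransmitter receptor genes, 13 lay below 0 with a median of -0.61 in the fit with clone as a term. Kcnd2, which encodes the Kv4.2 potassium channel, stood at 0.600 and 0.996 CPM at 24 h, against 2.73 and 2.17 CPM untreated, and Dpp6, the auxiliary subunit of Kv4 channels, at 26.7 and 4.72 CPM at 24 h, against 64.2 and 11.3 CPM untreated. Both were lower in both clones, and neither was called by DESeq2 or edgeR with clone as a term on all 6 libraries. On the 4 libraries of these groups edgeR gave Dpp6 an adjusted p of 0.00215 and Kcnd2 0.0503. Of 29 adhesion and guidance genes, 26 lay below 0 (median -0.41) and 4 were called by DESeq2. Of 16 enzyme genes 14 lay below 0 (median -0.38, 0 called by either tool), and of 7 signalling enzyme genes 5 did (median -0.38, 0 called by either tool). Among the enzyme genes Dpyd, which encodes the first enzyme of pyrimidine breakdown, stood at 0.400 and 0.332 CPM at 24 h, against 1.73 and 1.18 CPM untreated, and edgeR on the 4 libraries called it lower (adjusted p = 0.0298). Both 24 h levels lay under the 0.5 CPM minimum, so its membership rests on the other groups. The 12 receptor tyrosine kinases, phosphatases and ligands had a median of -0.07 with 10 below 0 and Erbb4 called.

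Medians of the scaffold and cytoskeleton lists lay near 0. The 17 scaffold, vesicle and synaptic genes had a median of 0.04 with 8 below 0, and the 13 genes of the cytoskeleton and its regulators 0.08 with 3 below 0, Ctnna2 among them. Syt1 on the scaffold list, the calcium sensor of synaptic vesicle release, stood at 0.0999 and 2.06 CPM at 24 h, against 0.642 and 6.10 CPM untreated. Neither tool called it on all 6 libraries, and edgeR on the 4 libraries called it lower (adjusted p = 0.0318). The 14 transcription factor and chromatin genes had a median of -0.13 with 9 below 0 and 0 called. Of the 4 secreted and matrix genes 3 lay above 0 (median 0.64, 0 called), and the clones differed, at 0.94 in clone 30 and -0.15 in clone 31. The remaining 20 genes on no role list had a median of -0.08 and held Edil3, and the lists of RNA-binding proteins and of DNA repair and mitosis held 2 genes each (medians -0.04 and -0.56). Neuron markers were measured beside them: 11 of 14 were tested and 0 were called. Their median change was 0.19 in the fit with clone as a term, with 5 below 0 and 6 above. Within the clones it was 0.10 in clone 30 and -0.10 in clone 31, so its sign differed. Their sum was 1163 and 798 CPM at 24 h, against 1287 and 909 CPM untreated. Most of it was Map2 alone, at 938 and 699 CPM at 24 h, against 1082 and 821 CPM untreated.

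After 48 h of auxin some long genes were lower and others higher, as were genes over the whole set tested. Prkg1, Negr1, Nrxn3, Cadps2 and Ctnna2 were among those that fell, and Fgfr2, Adamtsl1, Dmd, Fat3, Zbtb20 and Sox6 among those that rose. The median within-clone change was 0.01 in clone 30 and -0.20 in clone 31, beside 0.02 and 0.03 for shorter genes at the same CPM. With clone as a term, edgeR called 23 long genes lower (15.2%) and 13 higher (8.61%), where it called 9.08% of all genes lower and 8.35% higher. Of the shorter genes, not matched on level, it called 10.9% lower and 9.41% higher. On treatment group alone edgeR called 0 (0% of all genes), with 27 long genes among 3311 at an unadjusted p under 0.05, of which 13 were lower and 14 higher. DESeq2 with clone as a term called 25 lower and 16 higher, where 10.9% of all genes were called lower and 9.86% higher. On the 4 libraries of these groups edgeR with clone called 0, where 0.013% of all genes were called lower and 0.00651% higher. Of the other fits, DESeq2 on treatment group alone called 6 lower and 12 higher (6.11% and 4.16% of all genes), limma voom with clone called 22 lower and 14 higher (9.21% and 8.38% of all genes), edgeR with clone and no filter called 24 lower and 14 higher (6.07% and 5.99% of all genes) and edgeR with clone and the trends on GC content and exon length removed called 26 lower and 12 higher (11.6% and 7.09% of all genes). The 48 h levels lay wholly under the untreated ones for 40 long genes (26.5%; 25.7% of all genes) and wholly above them for 29 long genes (19.2%; 25.7% of all genes). Over both clones at once, 59 long genes were lower (39.1%; 35.3% of all genes) and 47 were higher (31.1%; 36.9% of all genes). The edgeR counts with clone as a term rest on untreated clone 31: omitting it left 0 long genes in either direction (0.0244% of all genes lower and 0.0122% higher), and DESeq2 then called 2 lower and 2 higher. Omitting untreated clone 30 gave 14 lower and 9 higher (6.3% and 5.54% of all genes). Omitting clone 30 at 24 h gave 6 and 3 (1.79% and 1.97% of all genes), omitting clone 31 at 24 h gave 6 and 4 (1.9% and 2.03% of all genes), and omitting clone 30 at 48 h gave 36 and 34 (18.5% and 20.9% of all genes), so the counts over all genes moved with those of the long genes.

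Calls in edgeR with clone as a term differed by level. Among the 19 long genes of 5 to 10 CPM, 26.3% were called lower and 0 higher, beside 7.12% and 12.6% of shorter genes of that level. Among the 40 at 50 CPM or more, 2 were called lower and 10 higher, beside 14.3% and 8.58% of shorter genes. Below 10 CPM edgeR with clone as a term called 0 long genes higher, and DESeq2 with clone as a term called 1, Esrrg (log2 change 0.72, adjusted p = 0.0221), which edgeR with clone and no filter also called (adjusted p = 0.0284). The median change of the 11 long genes between 1 and 2 CPM was -0.62 in clone 30 and -0.65 in clone 31, where the shorter genes of that level had 0.21 and 0.36. At 50 CPM or more the long genes had 0.16 and 0.07, and the shorter genes -0.07 and -0.05.

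Of the genes that had fallen at 24 h, Negr1, Nrxn3 and Ctnna2 were also called lower at 48 h. The adjusted p-values given for 48 h are from edgeR with clone as a term. Negr1 stood at 8.82 and 8.32 CPM at 48 h, against 23.1 and 23.7 CPM untreated. The fitted log2 change was -1.45 ± 0.13 (edgeR adjusted p = 0.0238). The groups did not overlap. Nrxn3 stood at 3.62 and 0.904 CPM at 48 h, against 8.66 and 2.27 CPM untreated. As a log2 change this was -1.27 ± 0.24 (edgeR adjusted p = 0.0292). Ctnna2 stood at 22.9 and 5.05 CPM at 48 h, against 39.1 and 12.4 CPM untreated. It had a log2 change of -1.0 ± 0.17 (edgeR adjusted p = 0.0264). In these 2 genes the groups overlapped, since untreated clone 31 lay below clone 30 at 48 h. Lrrc4c and Erbb4 were not called at 48 h. Lrrc4c was at 35.2 and 12.9 CPM at 48 h, against 35.0 and 13.1 CPM untreated. Erbb4 was at 23.4 and 13.9 CPM at 48 h, against 19.9 and 8.05 CPM untreated, with log2 changes of 0.23 in clone 30 and 0.78 in clone 31.

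Other genes that fell at 48 h encode kinases, vesicle proteins and adhesion molecules. Prkg1 (chromosome 19, 30567551 to 31765033), the cGMP-dependent protein kinase, stood at 4.62 and 1.88 CPM at 48 h, against 11.6 and 6.998 CPM untreated. The log2 change was -1.63 ± 0.32 (edgeR adjusted p = 0.0302). Cadps2 (chromosome 6, 23262773 to 23839421), a priming factor of dense-core vesicles, stood at 6.20 and 3.12 CPM at 48 h, against 11.3 and 8.42 CPM untreated. This was a log2 change of -1.13 ± 0.19 (edgeR adjusted p = 0.0267). Fgf13 (chromosome X, 59062145 to 59568071), an intracellular FGF homologous factor that binds sodium channels, stood at 6.79 and 3.20 CPM at 48 h, against 11.99 and 7.52 CPM untreated. On the log2 scale it changed by -1.0 ± 0.19 (edgeR adjusted p = 0.0292). In these 3 genes the groups did not overlap. Sdk1 (chromosome 5, 141241490 to 142215586), an immunoglobulin adhesion molecule of synaptic layers, stood at 16.8 and 9.98 CPM at 48 h, against 32.8 and 17.8 CPM untreated. That is a log2 change of -0.90 ± 0.14 (edgeR adjusted p = 0.0246). Kirrel3 (chromosome 9, 34485894 to 35036716), another immunoglobulin adhesion molecule, stood at 48.6 and 37.7 CPM at 48 h, against 66.0 and 72.4 CPM untreated. The fitted log2 change was -0.69 ± 0.14 (edgeR adjusted p = 0.0307). In both genes every 48 h library lay under every untreated library. Elmo1 (chromosome 13, 20090596 to 20608353), the partner of DOCK proteins in Rac activation, stood at 21.2 and 21.6 CPM at 48 h, against 38.9 and 34.1 CPM untreated. As a log2 change this was -0.76 ± 0.15 (edgeR adjusted p = 0.0306). Arhgap6 (chromosome X, 168795099 to 169304435), a GTPase-activating protein of the cytoskeleton, stood at 2.23 and 1.32 CPM at 48 h, against 3.81 and 2.87 CPM untreated. It had a log2 change of -0.95 ± 0.24 (edgeR adjusted p = 0.0474). Cacna2d3 (chromosome 14, 28904943 to 29721864), an auxiliary subunit of calcium channels, stood at 8.37 and 2.67 CPM at 48 h, against 15.2 and 4.10 CPM untreated. The log2 change was -0.75 ± 0.18 (edgeR adjusted p = 0.0405). The groups overlapped in Cacna2d3, whose level in untreated clone 31 was under that of clone 30 at 48 h, and not in Elmo1 and Arhgap6.

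The largest rises were in a growth factor receptor and a matrix glycoprotein. Fgfr2 (chromosome 7, 130162451 to 133123350), a receptor tyrosine kinase for FGFs whose span is far shorter in RefSeq and whose exons overlap those of Ctbp2, stood at 76.3 and 110.2 CPM at 48 h, against 39.3 and 24.6 CPM untreated. This was a log2 change of 1.58 ± 0.29 (edgeR adjusted p = 0.0282). Adamtsl1 (chromosome 4, 85514172 to 86428385), an ADAMTS-like matrix glycoprotein without protease activity that was counted on the enzyme list, stood at 55.0 and 126 CPM at 48 h, against 21.2 and 37.7 CPM untreated. On the log2 scale it changed by 1.56 ± 0.12 (edgeR adjusted p = 0.0238). Both had the larger change in clone 31, with Fgfr2 at 0.96 in clone 30 and 2.16 in clone 31. Omitting clone 31 at 48 h, the fitted change of Fgfr2 was 1.01. Dmd (chromosome X, 82948870 to 85206141), which encodes dystrophin, stood at 179.5 and 177 CPM at 48 h, against 115 and 89.6 CPM untreated. That is a log2 change of 0.81 ± 0.11 (edgeR adjusted p = 0.0238). Fat3 (chromosome 9, 15910189 to 16501285), an atypical cadherin, stood at 67.2 and 85.3 CPM at 48 h, against 41.2 and 49.5 CPM untreated. The fitted log2 change was 0.75 ± 0.09 (edgeR adjusted p = 0.0238). In Dmd and Fat3 both 48 h libraries lay above both untreated ones. Ntrk3 (chromosome 7, 78175959 to 78738012), the neurotrophin-3 receptor TrkC, stood at 20.8 and 26.0 CPM at 48 h, against 13.4 and 14.8 CPM untreated. As a log2 change this was 0.72 ± 0.13 (edgeR adjusted p = 0.0269). Pcdh9 (chromosome 14, 93013410 to 93890679), a protocadherin, stood at 52.8 and 109 CPM at 48 h, against 35.7 and 63.2 CPM untreated. It had a log2 change of 0.68 ± 0.10 (edgeR adjusted p = 0.0241). The Pcdh9 groups overlapped, as clone 31 was the higher clone throughout.

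The transcription factor genes lay above 0 as a group at 48 h. Of 14, 12 lay above 0 with a median of 0.33, and 3 rose and 0 fell in edgeR with clone as a term. Sox6, a SoxD factor of neural and glial differentiation, stood at 297 and 351 CPM at 48 h, against 201 and 209.9 CPM untreated. The log2 change was 0.65 ± 0.09 (edgeR adjusted p = 0.0240). Zbtb20, a zinc finger repressor expressed in neural progenitors, stood at 288 and 406 CPM at 48 h, against 212 and 212 CPM untreated. This was a log2 change of 0.71 ± 0.18 (edgeR adjusted p = 0.0494). Zbtb20 had 0.36 omitting clone 31 at 48 h and 1.01 omitting clone 30 at 48 h, and its edgeR call was lost on omitting any of the 6 libraries except that one. By role, the calls of the same fit are read beside the 9.08% of all genes called lower and 8.35% called higher. Of the 29 adhesion genes 8 fell and 4 rose, of the 15 channel and receptor genes 3 fell and 0 rose, and of the 17 scaffold genes 3 fell and 2 rose. The 13 cytoskeleton genes held 2 falls and 1 rise, the 16 enzyme genes 3 falls and 1 rise, the 12 receptor tyrosine kinases, phosphatases and ligands 1 fall and 2 rises, and the 7 signalling enzymes 1 fall. On treatment group alone the adjusted p-values of the 19 genes named for 48 h were 0.139 to 0.696 (edgeR). Markers of glia moved at the same time: 6 of 7 astrocyte markers were tested, 4 were called higher with clone as a term, and their sum was 833 and 1026 CPM at 48 h, against 587 and 378 CPM untreated. The part of such cells in the changes of long genes was not tested.

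**Figure D4:**
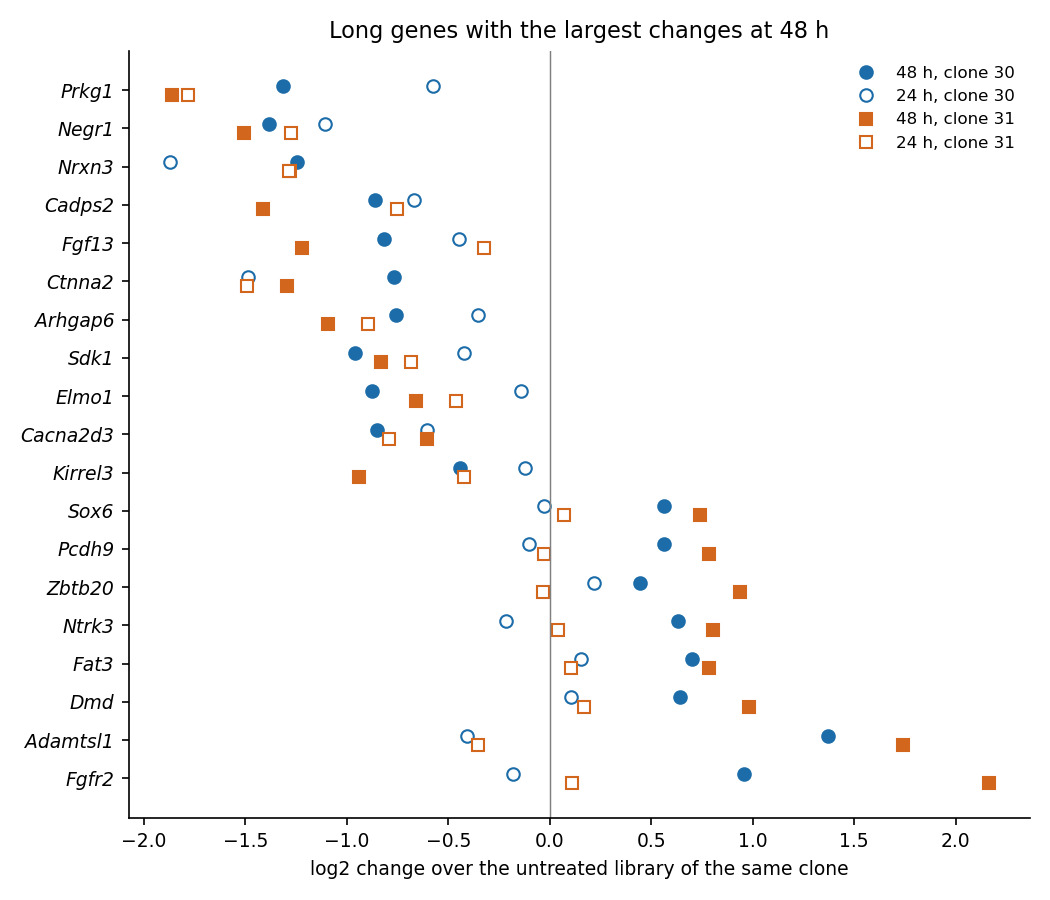
Log2 change over the untreated library of the same clone (x axis) of 11 of the 12 largest falls and the 8 largest rises among long genes called at 48 h (y axis), filled for 48 h and open for 24 h, circles for clone 30 and squares for clone 31. Negr1, Nrxn3 and Ctnna2 are already lower at 24 h in both clones, whereas the 8 genes that rose at 48 h lie between -0.5 and 0.5 at 24 h.

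Between 48 h and 24 h more long genes were called higher than lower, among them Lrrc4c, Erbb4, Fgfr2, Adamtsl1 and Robo2. With clone as a term, edgeR called 26 higher (17.2%) and 6 lower (3.97%), where it called 12.3% of all genes higher and 13.9% lower. The median within-clone change was 0.07 in clone 30 and 0.13 in clone 31, beside 0.01 and 0.02 for shorter genes at the same CPM. Among the 34 genes of 1000 kb or more the medians were 0.17 and 0.17, and 11 of them (32.4%) were called higher and 2 lower. This class holds Fgfr2, called higher, and Chd1, called lower, which in RefSeq span 104.4 kb and 67.65 kb. Higher by more than 1 were 14 long genes (9.27%) and 5.57% of the shorter genes, not matched on level. On treatment group alone edgeR called 0 (0% of all genes), with 27 long genes among 3997 at an unadjusted p under 0.05, of which 6 were lower and 21 higher. DESeq2 with clone as a term called 5 lower and 27 higher, where 14.3% of all genes were called lower and 12.1% higher. On the 4 libraries of these groups edgeR with clone called 8 lower and 26 higher, where 13.7% of all genes were called lower and 12.8% higher. Of the other fits, DESeq2 on treatment group alone called 1 lower and 15 higher (9.38% and 6.19% of all genes), limma voom with clone called 6 lower and 26 higher (14.5% and 12.7% of all genes), edgeR with clone and no filter called 8 lower and 27 higher (8.31% and 8.04% of all genes) and edgeR with clone and the trends on GC content and exon length removed called 10 lower and 24 higher (17.6% and 10.7% of all genes). The 48 h levels lay wholly under the 24 h ones for 22 long genes (14.6%; 27.9% of all genes) and wholly above them for 45 long genes (29.8%; 28.4% of all genes). Over both clones at once, 49 long genes were lower (32.5%; 38.6% of all genes) and 73 were higher (48.3%; 41.1% of all genes). Omitting either 24 h library, edgeR with clone lost all its calls among long genes and nearly all of those over all genes. DESeq2 with clone then called fewer of both. This contrast shares the 24 h and 48 h libraries with the contrasts above, so its values are not separate evidence.

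Lrrc4c and Erbb4 were lower at 24 h and no longer at 48 h. Lrrc4c stood at 35.2 and 12.9 CPM at 48 h, against 11.9 and 3.46 CPM at 24 h, a log2 change of 1.72 ± 0.14 (edgeR adjusted p = 0.0162), and at 48 h it was level with untreated cells in both clones. Erbb4 stood at 23.4 and 13.9 CPM at 48 h, against 7.22 and 3.39 CPM at 24 h. On the log2 scale it changed by 1.86 ± 0.18 (edgeR adjusted p = 0.0162). Fgfr2 and Adamtsl1, which rose over untreated cells, changed by 1.63 ± 0.28 (edgeR adjusted p = 0.0181) and 1.95 ± 0.13 (edgeR adjusted p = 0.0162). Esrrg, an orphan nuclear receptor, stood at 13.99 and 9.79 CPM at 48 h, against 6.75 and 3.41 CPM at 24 h. That is a log2 change of 1.28 ± 0.19 (edgeR adjusted p = 0.0163). Foxp1, a forkhead repressor whose exons overlap those of Gm20696, stood at 10.9 and 8.47 CPM at 48 h, against 4.52 and 4.58 CPM at 24 h. The fitted log2 change was 1.07 ± 0.17 (edgeR adjusted p = 0.0168). Robo2, a receptor for Slit guidance cues, stood at 205 and 62.9 CPM at 48 h, against 105 and 23.0 CPM at 24 h. As a log2 change this was 1.20 ± 0.15 (edgeR adjusted p = 0.0162). The groups overlapped since clone 30 had a higher level than clone 31 at every time. Of the 6 falls, Galntl6 and Rims1 lay under 2 CPM and are named after their values were seen, with log2 changes of -2.09 ± 0.55 and -1.13 ± 0.29 (edgeR adjusted p = 0.0418 and 0.0392). Galntl6 had a mean of 0.52 CPM, next to the 0.5 CPM minimum. Its membership thus rests on the groups where it was high, and its fall at 48 h is no separate support. The other falls, in genes of 2 CPM or more, were smaller. Chd1, a chromatin remodeller that spans 67.6 kb in GENCODE M21, stood at 93.8 and 70.3 CPM at 48 h, against 135 and 142 CPM at 24 h. It had a log2 change of -0.76 ± 0.19 (edgeR adjusted p = 0.0363). Omitting clone 31 at 48 h, it was -0.46. Kcnq5, a potassium channel gene, stood at 11.5 and 15.8 CPM at 48 h, against 19.8 and 25.1 CPM at 24 h. The log2 change was -0.72 ± 0.12 (edgeR adjusted p = 0.0171). In both genes the groups did not overlap. Sorcs1, a sorting receptor of neurons, stood at 163 and 59.6 CPM at 48 h, against 211 and 93.9 CPM at 24 h. This was a log2 change of -0.51 ± 0.12 (edgeR adjusted p = 0.0337). Its groups overlapped, since clone 30 was the higher clone. Pde4b, a cAMP phosphodiesterase, stood at 138 and 154 CPM at 48 h, against 180.1 and 209.7 CPM at 24 h. On the log2 scale it changed by -0.41 ± 0.10 (edgeR adjusted p = 0.0330). On treatment group alone the adjusted p-values of these 11 genes and of Dpp6 were 0.0860 to 0.693 (edgeR).

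The clones differed in the level of many long genes before any auxin. In untreated cells 26 of the 151 (17.2%) were 2-fold or more apart, 21 lower and 5 higher in clone 31 than in clone 30, beside 7.95% of the shorter genes. These shares were not matched on level, and the median level was 18.8 CPM for long genes, against 39.1 CPM. The direction of change within a clone was opposite for 35 long genes at 24 h, 45 at 48 h and 29 between 48 h and 24 h, and by at least 0.2 on each side for 4, 12 and 4. Lower and higher in both clones were 55.6% and 21.2% of long genes at 24 h, beside 29.5% and 33.9% of all genes. At 48 h they were 39.1% and 31.1%, beside 35.3% and 36.9%. Between 48 h and 24 h they were 32.5% and 48.3%, beside 38.6% and 41.1%. Opposite directions were thus rarer among long genes than among all genes at 24 h, and about as frequent otherwise. Dpp6 was the clearest case among the named genes. It stood at 64.2 and 11.3 CPM untreated, 26.7 and 4.72 CPM at 24 h and 55.0 and 42.9 CPM at 48 h. At 48 h its log2 change was -0.22 in clone 30 and 1.91 in clone 31, while at 24 h its log2 change was -1.26 in clone 30 and -1.26 in clone 31. With 1 library per clone and time, a difference between the clones cannot be tested.

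**Figure D5:**
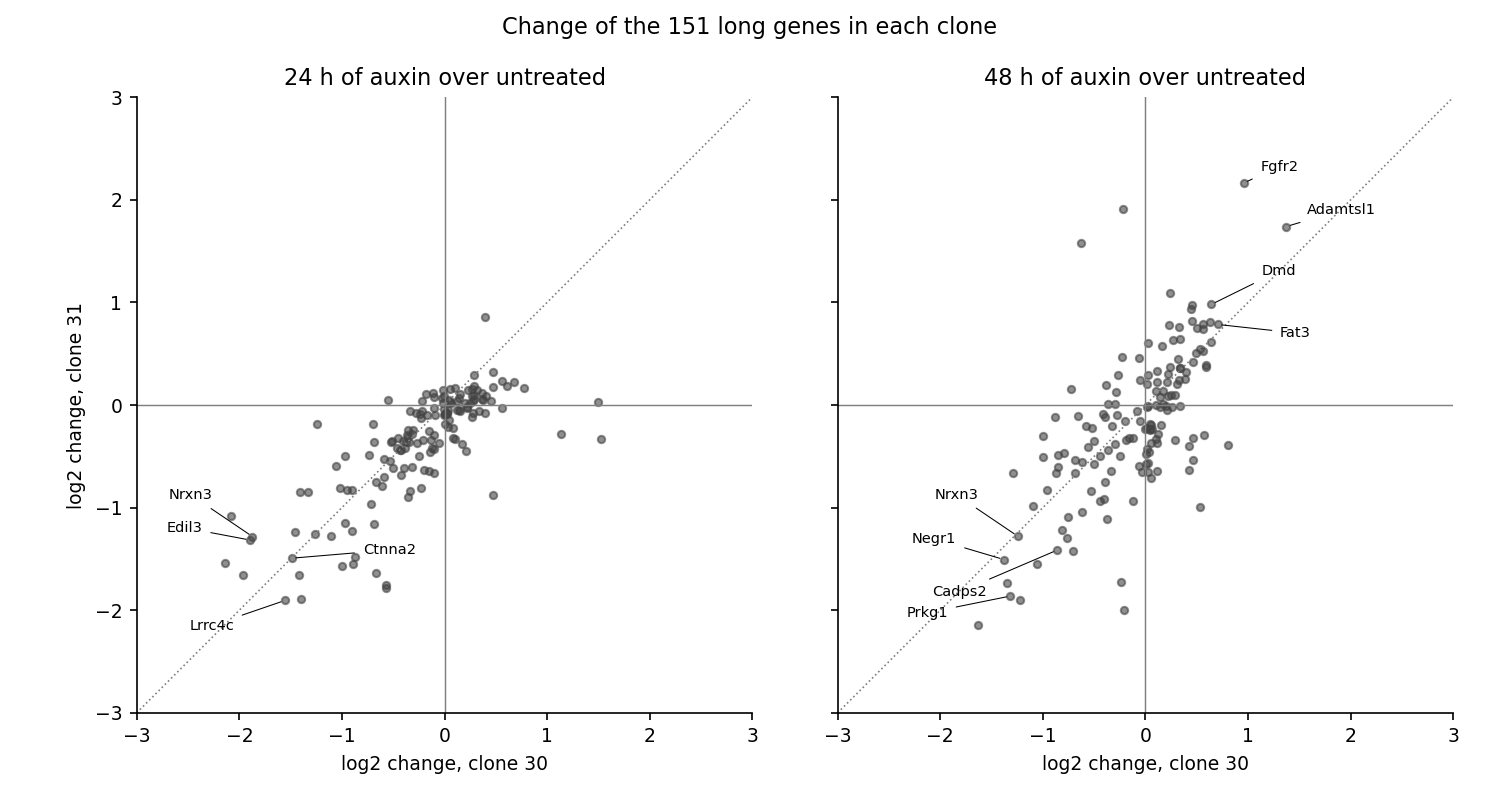
Log2 change in clone 31 (y axis) against that in clone 30 (x axis) for the 151 long genes, at 24 h (left) and 48 h (right) over untreated, 1 point per gene, with the line of equal change dotted. At 24 h 84 genes lie in the lower left quadrant and 32 in the upper right; at 48 h both the lower left and the upper right hold genes, 59 and 47.

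The most abundant long genes had no call at 24 h. Ank2 stood at 968 and 909 CPM untreated, 1012 and 921 CPM at 24 h and 1006 and 704 CPM at 48 h, and Exoc4 at 326 and 232 CPM untreated, 354 and 239 CPM at 24 h and 330.5 and 286 CPM at 48 h. With clone as a term edgeR called neither in any comparison. Cdh13, which encodes T-cadherin, stood at 266 and 134 CPM untreated, 237 and 125 CPM at 24 h and 313 and 286 CPM at 48 h. Sema6d stood at 209 and 220.5 CPM untreated, 241 and 223 CPM at 24 h and 218 and 192 CPM at 48 h. Dock1 stood at 219 and 287 CPM untreated, 218 and 268 CPM at 24 h and 192 and 226 CPM at 48 h. Including Zbtb20 and Sox6, none of the 8 most abundant long genes was called at 24 h by edgeR or DESeq2. Of the 3 longest, Fgfr2 and Dmd are given above, and Ptprd, a receptor tyrosine phosphatase of synapse formation, stood at 25.9 and 79.9 CPM untreated, 20.8 and 52.4 CPM at 24 h and 26.8 and 67.4 CPM at 48 h, with 24 h changes of -0.31 in clone 30 and -0.61 in clone 31 (edgeR adjusted p = 0.663).

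Membership depends on the annotation and on both thresholds. Just inside 500 kb lay Edil3 (501.8 kb), with 24 h changes of -1.90 and -1.32 in clones 30 and 31, and Dock1 (503.0 kb), with 0.00 and -0.10. Just outside lay Pde1c (499.3 kb), with -0.15 and -0.70, and Dnm3 (495.6 kb), with 0.33 and 0.07. Just inside 0.5 CPM lay Alk (0.503 CPM), with -0.70 and -0.19, and Naaladl2 (0.519 CPM), with -0.69 and -1.16. Just outside lay Rbfox1 (0.488 CPM), with 0.40 and -1.69, and Cntnap2 (0.465 CPM), with -1.12 and -1.12. Span was taken from the exon table of the count files (Ensembl release 92 on GRCm38). By GENCODE M21, 2 of the 151 genes spanned under 500 kb, Chd1 (67.6 kb) and Arhgap26 (383.1 kb), and by RefSeq 6 did, among them Fgfr2, at 104.4 kb instead of 2960.9 kb. Exons of Fgfr2 overlap those of Ctbp2 on the same strand, those of Foxp1 overlap Gm20696 and those of Schip1 overlap Iqschfp, so the counts of these 3 genes may be incomplete. DESeq2 with clone as a term called the same number lower at 24 h, 8, among genes that are long in all 3 annotations.

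Genes of the machinery that transcribes long genes were a list of 34, made of elongation factors, topoisomerases and RNA-binding proteins that act along nascent transcripts. At 24 h, 0 of the 34 were called by edgeR or DESeq2 and their median change was 0.02, with 10 below 0 and 24 above. At 48 h 4 were called lower and 1 higher by edgeR with clone as a term (median -0.15), where 9.08% of all genes were called lower and 8.35% higher. Between 48 h and 24 h 5 were called lower and 0 higher (median -0.17), where 13.9% of all genes were called lower and 12.3% higher. Those called at 48 h changed by little. Cdk9, the kinase of the elongation factor P-TEFb, stood at 66.6 and 62.1 CPM at 48 h, against 84.0 and 94.0 CPM untreated. That is a log2 change of -0.46 ± 0.10 (edgeR adjusted p = 0.0381). Nelfa, a subunit of the pausing factor NELF, stood at 29.9 and 30.8 CPM at 48 h, against 38.5 and 46.0 CPM untreated. The fitted log2 change was -0.47 ± 0.11 (edgeR adjusted p = 0.0382). Both subunits of the histone chaperone FACT were lower. Ssrp1 stood at 291 and 320.4 CPM at 48 h, against 381 and 446 CPM untreated. As a log2 change this was -0.43 ± 0.10 (edgeR adjusted p = 0.0393). Supt16 stood at 167 and 158 CPM at 48 h, against 206 and 255 CPM untreated. It had a log2 change of -0.50 ± 0.12 (edgeR adjusted p = 0.0466). Aff4, a scaffold of the super elongation complex, was higher, at 318 and 371 CPM at 48 h, against 253 and 270.4 CPM untreated. The log2 change was 0.40 ± 0.10 (edgeR adjusted p = 0.0489).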

How the data were processed

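RNA-seq counts of 6 libraries were used, 2 clones at each of 3 auxin times. The authors deposited raw counts per gene, summed over exons by featureCounts 1.6.1 with the Ensembl release 92 annotation of GRCm38; the file headers record this. R 3.4.2 and DESeq2 also appear in the submitters' processing notes, and the aligner's version is not given in the sources used here. Another deposited column, per the file headers, is the exon length in bp. Span came from the exon starts and ends in the files, and biotype and GC content from GENCODE M21 (GRCm38), in which 95 of 53801 genes had no match.

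The main test was the 2-sided quasi-likelihood test of edgeR 4.0.16 (robust, R 4.3.3). It modelled treatment group over the 6 libraries after TMM scaling and filterByExpr, which kept 16007 genes including all 151 long genes, at a Benjamini-Hochberg adjusted p of 0.05 over all genes tested. Standard errors are the log2 change over the square root of F, or DESeq2's own. The number in a sample title names the subclone, so equal numbers mean one source of cells. Deviations from the group means correlated at 0.80 (24 h and untreated), 0.58 (48 h and untreated) and 0.71 (48 h and 24 h) over 16007 genes. Clone thus pairs the libraries, and fits with clone as a term (replicate block) are given beside the main ones. The biological coefficient of variation was 0.121 with clone and 0.271 without, on 2 and 3 residual degrees of freedom. Within-clone changes are differences of log2 CPM with a prior count of 2, 1 library over 1 library, with no test. P-values treat the clones as replicates. Floors of 3 counts cover counting error only.

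Genes were named by rule: per comparison the 12 largest falls and 8 largest rises among long genes called by edgeR with clone as a term (at 24 h, where fewer than 5 were called, by DESeq2 1.42.0) with a mean of at least 2 CPM and 1 direction in both clones, the 8 most abundant, the 3 longest and those next to a threshold. Kcnd2, Dpp6 at 24 h, Syt1, Ctnnd2, Sox2ot, Snhg14, the called elongation genes and the genes of differing annotation were named after their values were seen. Some genes that this rule names are not reported here. The members and the lists of roles, markers and elongation factors were chosen with earlier results of these data known. The tests were checked on simulated counts. DESeq2, limma 3.58.1, other scalings, filters, thresholds, annotations and left-out libraries were alternatives.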

Additional observations from a re-analysis of the deposited data

Results flagged for a closer look

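The median change of the 151 long genes at 48 h over untreated was 0.014 in clone 30 and -0.197 in clone 31, and at 24 h it was below 0 in both. Clone 30 was thus level with the shorter genes at the same CPM, whose median was 0.016 in clone 30 and 0.034 in clone 31. Dpp6 at 48 h over untreated was at -0.22 in clone 30 and 1.91 in clone 31. In both results the values of the clones lay on opposite sides of 0, and with 1 library per clone and time neither difference was tested.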

How the results depend on the processing

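On treatment group alone, edgeR called 0 long genes in any comparison under TMM and the other scalings, a filter at 1 CPM, limma voom or with any library left out. The replicate block, justified by the shared subclone, changed this at 48 h. Its 4 counts of long genes (lower and higher at 48 h over untreated, then lower and higher at 48 h over 24 h) were 23, 13, 6 and 26. In the same order and with the block they were 23, 14, 6 and 26 with DESeq2 size factors, 21, 16, 5 and 35 with upper-quartile scaling, 22, 14, 6 and 28 with total counts, 24, 14, 8 and 27 with no filter, 25, 16, 5 and 27 with DESeq2, 22, 14, 6 and 26 with limma voom and 26, 12, 10 and 24 with trends on GC content and exon length removed. Other choices of members gave 57, 41, 39 and 86 at 300 kb or more, 8, 4, 2 and 11 at 1000 kb or more, 21, 13, 5 and 26 at 1 CPM or more and 16, 13, 4 and 23 at 5 CPM or more. Among genes long in 3 annotations, an alternative added after seeing the data, they were 23, 11, 5 and 24 with edgeR and 24, 14, 4 and 25 with DESeq2. The edgeR counts for all choices of members come from the same fit with the block. In the same order, that fit called 9.08%, 8.35%, 13.9% and 12.3% of all genes. For the other scalings no share over all genes is given, so their counts only show how the TMM counts moved. The 4 libraries of the groups gave 0 and 0 at 48 h over untreated, and 8 and 26 at 48 h over 24 h. Without the block, no filter gave 1 lower at 48 h and 5 higher at 48 h over 24 h, and DESeq2 gave 6, 12, 1 and 15.

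At 24 h long genes called lower were 1 with DESeq2 on treatment group alone, and with the block 8 with DESeq2, 8 with DESeq2 among genes long in 3 annotations, 7 with no filter and 16 on the 4 libraries of the groups. The median change at 24 h was -0.18, and with the block -0.41 at 1000 kb or more and -0.09 at 5 CPM or more; at 48 h over 24 h it was 0.10, 0.18 with upper-quartile scaling with or without the block, 0.05 with trends on GC content and exon length removed and 0.20 at 1000 kb or more. The cause of these differences was not tested.

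With 1 library left out, medians on treatment group alone were -0.31 to -0.07 at 24 h, -0.20 to 0.00 at 48 h and -0.02 to 0.25 for 48 h over 24 h, with the block -0.25 to -0.09, -0.18 to 0.00 and 0.01 to 0.15, and with DESeq2 and the block -0.25 to -0.09, -0.18 to 0.00 and 0.01 to 0.14. Omitting in turn untreated clones 30 and 31, 24 h clones 30 and 31 and 48 h clones 30 and 31, edgeR with the block called 0, 0, 0, 0, 24 and 24 lower and 0, 0, 0, 0, 1 and 1 higher at 24 h, 14, 0, 6, 6, 36 and 23 lower and 9, 0, 3, 4, 34 and 13 higher at 48 h, and 8, 8, 0, 0, 20 and 7 lower and 28, 26, 0, 0, 45 and 29 higher at 48 h over 24 h. In that order DESeq2 with the block called 3, 3, 1, 2, 12 and 13 lower and 0, 0, 0, 0, 0 and 0 higher, 11, 2, 10, 10, 20 and 11 lower and 11, 2, 10, 10, 18 and 9 higher, and 4, 3, 0, 0, 11 and 3 lower and 22, 22, 7, 5, 26 and 19 higher. Of 1360 values for single named genes under all settings 5 changed sign, all on treatment group alone with a library left out: Ctnna2 (0.162) and Cacna2d3 (0.423) at 48 h without untreated clone 30, and at 48 h over 24 h Sorcs1 without the 24 h library of clone 30 (0.237) or the 48 h library of clone 31 (0.0875) and Robo2 without the 48 h library of clone 30 (-0.00432). With 1 library left out their values ran between -2.34 and 0.16 (Ctnna2), -1.84 and 0.42 (Cacna2d3), -1.34 and 0.24 (Sorcs1) and -0.00432 and 2.54 (Robo2). No value changed sign in a fit with the block. Genes of 0.5 to 2 CPM rest on few counts, which limits the precision of their changes.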

Other observations

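Long genes without protein-coding annotation were set apart. Sox2ot, the non-coding transcript that overlaps Sox2 (chromosome 3, 34104270 to 34682619, 578.3 kb), stood at 48.1 and 33.5 CPM at 48 h, against 13.5 and 9.67 CPM untreated, a log2 change of 1.82 ± 0.15 (edgeR with clone as a term, adjusted p = 0.0238), higher in both clones. At 24 h it stood at 14.9 and 14.2 CPM and was not called. Snhg14, the imprinted host transcript of small nucleolar RNAs (chromosome 7, 59307924 to 59975759, 667.8 kb), stood at 24.4 and 21.5 CPM at 48 h, against 19.6 and 19.7 CPM untreated, and was not called at either time.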
